A study of Mus musculus with 4 samples.

Results

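The 9 genes described here are regulators and products of fat cell differentiation and lipid handling, and they were selected by symbol from the 32285 genes in the deposited matrices. They are Pparg, Cebpa, Cebpb, Cebpd, Fabp4, Lpl, Adipoq, Plin2 and Cd36, and each symbol matched exactly 1 gene in all 4 libraries. Their positions are given on GRCm38 (mm10) from the GENCODE vM21 annotation. The libraries hold single cells of the proximal lower incisor of mice at postnatal day 15, dissociated by enzymes and counted with the 10x Genomics 3' chemistry, which assigns a unique molecular identifier (UMI) to each captured transcript. The continuously growing incisor keeps its mesenchymal stem cells (MSCs) in this proximal tissue, and the study asked how loss of Din (4930453N24Rik) alters them. The WT group had 2 libraries. The Din-KO group also had 2 libraries, from mice with a germline allele that lacks exon 2 of Din and carries a LacZ reporter driven by the Din promoter. All 4 libraries were of the same age and tissue, the strain was not given in the labels, and the labels speak of mice without giving the number of animals per library. The replicates are therefore libraries, and p-values measure only the spread between libraries, which may be technical.

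Adipogenesis is driven by a cascade of transcription factors. Cebpb and Cebpd encode early C/EBP factors that respond to hormones and cytokines, and they precede Pparg and Cebpa, which sustain each other in the mature fat cell. Their targets include Lpl, the lipase that frees fatty acids from circulating lipoproteins, Cd36, a fatty acid transporter and scavenger receptor, Fabp4, a fatty acid carrier in the cytoplasm, Plin2, which coats lipid droplets, and Adipoq, the hormone adiponectin. Most of these genes also work outside fat, Fabp4 and Cd36 in capillary endothelium and Cebpa, Cebpb, Cd36 and Plin2 in myeloid cells.

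After filters on detected genes (at least 1000), mitochondrial UMIs (at most 10%) and hemoglobin UMIs (at most 3%), 11310 of 20502 barcodes were kept, between 1272 and 4575 per library, with a median of 8016 to 11587.5 UMIs per cell. They fell into 31 clusters, named from marker genes, and 15 of these held 7164 mesenchyme-like cells. The mesenchyme-like cells comprised 357 odontoblast-like, 4098 dental pulp-like and 1272 dental follicle-like cells and 3 clusters without a subtype name, called by their first leading genes other than the 9. In the cluster led by Mgp, Rgs5 and Mfap5, Lpl was itself the third leading gene. The other main classes were endothelium-like (750 cells), perivascular-like (75), macrophage-like (1386) and monocyte or dendritic-like (265). Cells with a UMI of the Y-linked genes Ddx3y, Eif2s3y, Kdm5d or Uty made up 0.102% and 0.0641% of the WT libraries and 41.9% and 40.3% of the Din-KO libraries. Cells with 3 or more Xist UMIs and no Y-linked UMI made up 92.3% and 85.1% in WT and 38.2% and 45.2% in Din-KO. Both Din-KO libraries thus held cells of male and female mice, and the sex of the mice and the genotype cannot be told apart. Din itself was listed at 36.3 and 28.4 CPM (the UMIs of a gene in 1000000 UMIs of all genes) in WT and 22.7 and 28.3 CPM in Din-KO mesenchyme-like cells, but these counts were not resolved by exon and do not check the loss of exon 2. Replicate 1 libraries were rich in dental pulp-like cells (1718 and 1962) and replicate 2 libraries were not (227 and 191).

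Levels are given as CPM of the UMIs summed over the cells of a class in 1 library. They compare classes for 1 gene, not genes with one another. A lower level in a class sum can come from fewer expressing cells or from less RNA per cell. Intervals and detection limits cover counting error only, and 0 UMIs was read as a level below that of 3 counts.

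The promoters of 6 of the 9 genes were listed in RefSeq (GRCm38.p6), in 8 windows of 250 bases before to 50 after a start. Plin2 and Cd36 are shown because each of their windows holds both motifs searched. Capitals mark CCAAT and TGACCT, the antisense form of AGGTCA, the element that PPAR and other nuclear receptors read, usually in pairs. The C/EBP factors are named after CCAAT, but binding sites of these factors were not searched.
Plin2 (chr4:86670010-86670309, minus strand): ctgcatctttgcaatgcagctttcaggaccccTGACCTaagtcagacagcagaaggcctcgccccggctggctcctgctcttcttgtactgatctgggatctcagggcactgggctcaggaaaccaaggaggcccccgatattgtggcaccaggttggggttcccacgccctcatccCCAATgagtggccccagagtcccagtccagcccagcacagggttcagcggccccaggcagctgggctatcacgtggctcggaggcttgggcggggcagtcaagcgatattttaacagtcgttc
Cd36 (chr5:17835847-17836146, minus strand): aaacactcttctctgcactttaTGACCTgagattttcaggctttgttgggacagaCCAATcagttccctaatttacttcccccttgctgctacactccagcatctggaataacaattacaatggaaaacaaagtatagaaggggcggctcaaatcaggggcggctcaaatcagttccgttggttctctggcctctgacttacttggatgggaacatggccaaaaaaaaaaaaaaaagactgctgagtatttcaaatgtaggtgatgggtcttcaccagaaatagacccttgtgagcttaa
Both are written 5′ to 3′ on the gene's strand. In Plin2 the CCAAT begins 73 bases and the AGGTCA match 218 bases upstream of the start, and in Cd36 they lie at 195 and 228 bases. On either strand, CCAAT was found in 37.4% and AGGTCA in 16.3% of 32851 promoter windows of the same length, so each match alone is common. The Cebpa and Cebpb windows held neither. The 3 Pparg windows, which belong to different starts, held AGGTCA in 2 and CCAAT in 2, with both in 1 window. Adipoq held CCAAT 3 times. These matches are descriptions of letters, and 3' counts do not tell which start was used.

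Adipoq (ENSMUSG00000022878, chr16:23146536-23158028) was close to the limit of detection, and no class had any of 6 adipocyte markers in at least 10% of its cells. The 4 libraries together held 54 UMIs of Adipoq in 18 barcodes. Only 19 of these UMIs, in 10 cells, were in cells that passed the filters. The class sums of dental pulp-like, endothelium-like and macrophage-like cells held 0 UMIs, which allows up to 0.0787, 0.295 and 0.194 CPM in the pooled classes. In mesenchyme-like cells 13 UMIs in 5 cells were counted, 10 of them in 2 cells of a small cluster led by Mgp, Rgs5 and Mfap5 in WT replicate 2. The richest of the 2 cells held 9 Adipoq, 37 Lpl, 4 Cebpa and 1 Pparg UMIs among 4178 UMIs. Of the 6 adipocyte markers Plin1, Cidec, Cfd, Lep, Retn and Adrb3, 3 (Cidec, Cfd and Lep) had 0 UMIs in the kept cells. Among the 7164 mesenchyme-like cells Adrb3 was found in 76, of which 70 were dental follicle-like, Plin1 in 47, and Retn in 9 with 127 UMIs. None of the 18 barcodes with Adipoq held a UMI of any of the 6 markers. The Adipoq counts were too low for a test, and the gene passed the filter on low counts in 0 of the 10 comparisons.

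**Figure D1:**
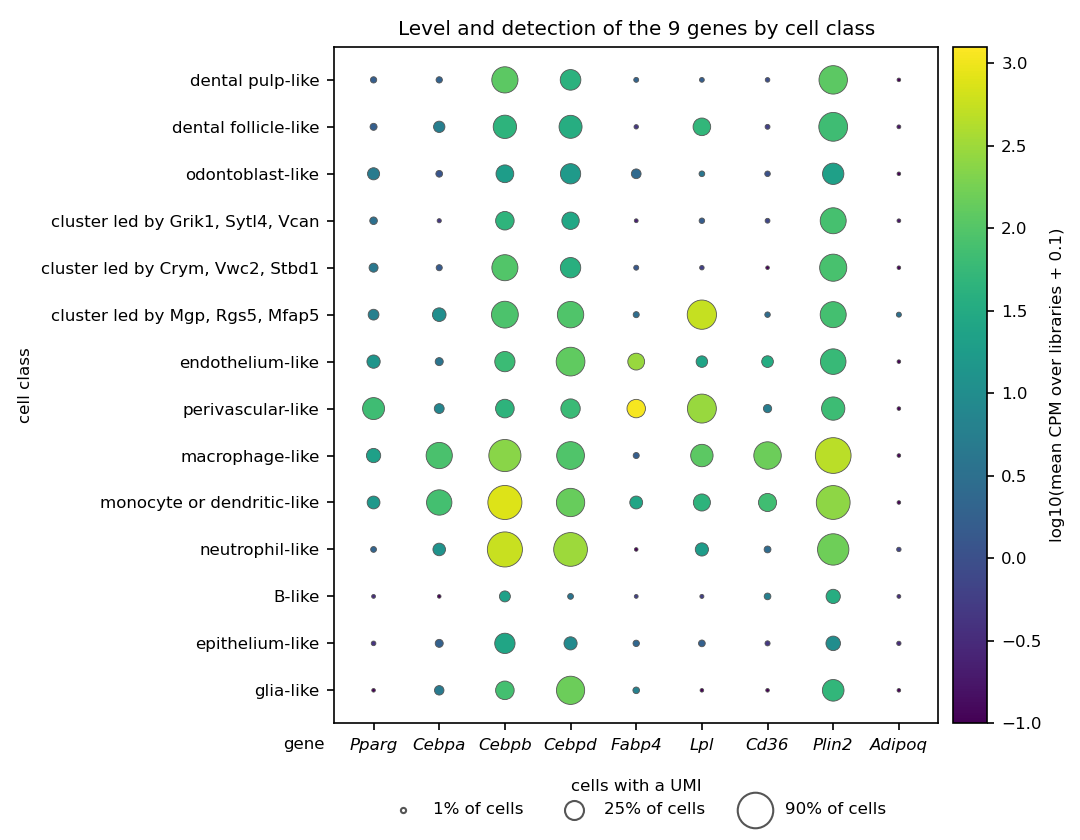
Mean level and detection of the 9 genes in 14 cell classes. Colour is log10 of the mean CPM over libraries plus 0.1, and area grows with the mean percentage of cells with at least 1 UMI. Fabp4 stands out in endothelium-like and perivascular-like cells, Cebpa, Cd36 and Plin2 in macrophage-like and monocyte or dendritic-like cells, and Lpl in the cluster led by Mgp, Rgs5 and Mfap5, while Adipoq is near 0 throughout.

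Pparg (ENSMUSG00000000440, chr6:115360951-115490399), the central regulator of fat cell differentiation, was low in all mesenchyme. Mesenchyme-like sums held 2.27 and 2.13 CPM in WT and 1.73 and 2.33 CPM in Din-KO (2.11 ± 0.27, SD, n = 4 libraries). Macrophage-like sums held 10.2 and 39.2 CPM in WT and 12.8 and 20.3 CPM in Din-KO, and endothelium-like sums 9.6 and 21.8 CPM in WT and 7.95 and 16.2 CPM in Din-KO. No library of either class overlapped with mesenchyme-like cells. The highest level was in perivascular-like cells, at 81.7 CPM in WT replicate 1 and 50.2 CPM in Din-KO replicate 1, the 2 libraries with at least 20 of these cells. With each cell thinned to 2000 UMIs, Pparg was detected in 3.82% of macrophage-like, 1.66% of endothelium-like and 0.315% of mesenchyme-like cells on average, against 13.7%, 11.8% and 2.95% unthinned. B-like cells, which held 1 Pparg UMI and had median depths of 2603.5 to 3535.5 UMIs, gave 0.140% thinned and 0.135% unthinned. The thinned share was taken over fewer B-like cells. Whether B-like cells lack the gene was not tested.

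Cebpa (ENSMUSG00000034957, chr7:35119293-35121928), which partners with Pparg in fat cells and is also required for myeloid differentiation, was mainly found in myeloid cells here. Macrophage-like cells were 12.3% of cells and held 65.4% of the Cebpa UMIs. Their sums were 55.4 and 114 CPM in WT and 75.1 and 93.1 CPM in Din-KO, and monocyte or dendritic-like cells held 74.7 CPM on average. Within mesenchyme, dental follicle-like cells held 4.16 and 5.03 CPM in WT and 4.84 and 7.49 CPM in Din-KO, and dental pulp-like cells 1.38 and 1.04 CPM in WT and 2.91 and 1.79 CPM in Din-KO. All 4 follicle sums were above all 4 pulp sums. The cluster led by Mgp, Rgs5 and Mfap5 ranged from 0 CPM in WT replicate 1 to 16.7 CPM in Din-KO replicate 2.

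Cebpb (ENSMUSG00000056501, chr2:167688915-167690418), an early C/EBP factor, was detected far more widely. The mean level was 778 ± 390 CPM in monocyte or dendritic-like cells (SD, n = 4) and 568 CPM in neutrophil-like cells over 3 libraries. It was 237 ± 94.7 CPM in macrophage-like cells and 119 ± 41.8 CPM in dental pulp-like cells (SD, n = 4 each). The range of each of these classes overlapped with that of the next. Inside the pulp class Cebpb was uneven. The largest pulp cluster (1369 cells, led by Cldn10 and Trf) held 258 and 329 CPM in WT and 361 and 319 CPM in Din-KO. Odontoblast-like sums held 15.9 and 11.1 CPM in WT and 24.9 and 20.9 CPM in Din-KO, below every pulp sum.

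Cebpd (ENSMUSG00000071637, chr16:15887286-15891031), the other early factor, was highest in neutrophil-like cells at 319 CPM on average over 3 libraries. Endothelium-like sums held 103 and 131 CPM in WT and 114 and 156 CPM in Din-KO. Mesenchyme-like sums were lower, at 32.6 and 30.7 CPM in WT and 36.6 and 49.1 CPM in Din-KO.

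Fabp4 (ENSMUSG00000062515, chr3:10204088-10208576) marked a minority of vessel cells with very high counts. In all, 2940 UMIs were found in only 260 kept cells, and endothelium-like and perivascular-like cells held 71.3% and 21.1% of them. Endothelium-like sums were 112 and 413 CPM in WT and 41.5 and 610 CPM in Din-KO. In Din-KO replicate 2 a single endothelium-like cell held 800 of 982 UMIs, and the level without it was 116 CPM. Only 123 of 750 endothelium-like cells had a Fabp4 UMI, and the 36 cells with 10 or more held 88.5% of the UMIs of the class. Perivascular-like sums held 1336 CPM in WT replicate 1 and 877 CPM in Din-KO replicate 1, again with 1 cell giving 48.0% and 74.0% of the UMIs. Mesenchyme-like cells held 94 UMIs in 54 of 7164 cells. Of the endothelium-like cells 30 carried both Fabp4 and Pparg and 33 both Fabp4 and Cd36.

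Cd36 (ENSMUSG00000002944, chr5:17781690-17888801) was at 149 ± 92.1 CPM in macrophage-like cells (SD, n = 4), which held 77% of its UMIs. Monocyte or dendritic-like cells followed at 70.0 CPM and endothelium-like cells at 33.0 CPM, and the range of each overlapped with the next. Mesenchyme-like cells held 0.879 CPM on average. A Cd36 UMI was seen in 2.31% of B-like and 0.815% of mesenchyme-like cells, although the latter were deeper. Whether B-like cells express Cd36 was not tested, so they do not show whether the mesenchymal counts are background.

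Plin2 (ENSMUSG00000028494, chr4:86648386-86670060), the lipid droplet coat protein that many cell types use, was found in every class. Macrophage-like cells held 356 and 580 CPM in WT and 372 and 616 CPM in Din-KO, and a UMI was seen in 91.0% of them. Dental pulp-like sums held 116 and 104 CPM in WT and 141 and 111 CPM in Din-KO, dental follicle-like sums 58.6 and 65.4 CPM in WT and 78.9 and 62.5 CPM in Din-KO. Odontoblast-like sums fell between 16.7 and 23.0 CPM, below both. As for Cebpb, the pulp cluster led by Cldn10 and Trf was the highest pulp cluster with cells in all 4 libraries, at 251 ± 81.7 CPM (SD, n = 4). Thinned to 2000 UMIs per cell, Plin2 was detected in 58.1% of macrophage-like, 22.2% of pulp-like and 6.94% of B-like cells.

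Lpl (ENSMUSG00000015568, chr8:68880491-68907448) was the member with the most uneven level within the mesenchyme. The cluster led by Mgp, Rgs5 and Mfap5 held 192 and 1230 CPM in WT and 140 and 653 CPM in Din-KO. With 161 cells, 1.42% of all kept cells, it held 29.2% of all Lpl UMIs, and Lpl was seen in 106 of its cells. A single cell of WT replicate 2 gave 278 of the 1524 UMIs, and without it that library was at 898 CPM. Dental follicle-like cells held 62.5 and 101 CPM in WT and 11.4 and 22.3 CPM in Din-KO, whereas dental pulp-like cells held 1.38 and 1.29 CPM in WT and 1.16 and 2.15 CPM in Din-KO. Thus every follicle sum was above every pulp sum. Macrophage-like cells held 44.5 and 193 CPM in WT and 73.6 and 154 CPM in Din-KO. The perivascular-like level was 356 CPM in WT replicate 1 and 233 CPM in Din-KO replicate 1. Fatty acid uptake by Lpl takes place on capillaries, where Gpihbp1 anchors the enzyme, and Gpihbp1 was at 584 CPM in endothelium-like cells and at most 7.99 CPM on average in any of the mesenchyme-like classes.

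**Figure D2:**
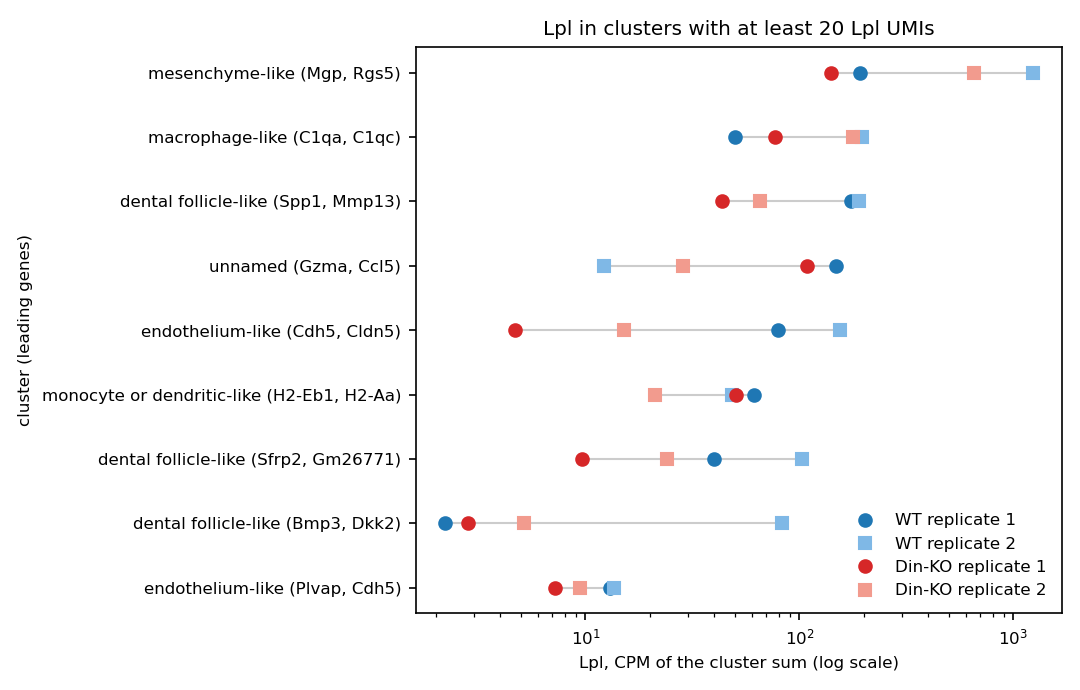
Lpl level per library in the 9 clusters with at least 20 Lpl UMIs and enough cells in all 4 libraries, as CPM of the cluster sum on a log scale (blue, WT; red, Din-KO; circles, replicate 1; squares, replicate 2; the grey line spans the libraries). The mesenchyme-like cluster led by Mgp and Rgs5 is the highest on average. Both Din-KO libraries lie below both WT libraries in the dental follicle-like clusters led by Spp1 and Mmp13 and by Sfrp2. The same holds in the endothelium-like cluster led by Cdh5 and Cldn5.

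The cluster led by Mgp, Rgs5 and Mfap5 also held some genes tied to adipocyte progenitors, which were chosen here after their values had been seen and were not tested. The list of 11 adipocyte progenitor genes is not given in full here. Lepr, Cxcl12, Ly6a and Cd34 belong to it, whereas Ebf1 and Ebf2 come from the list of adipogenic transcription factors. The levels of Pdgfra, Dpp4, Pi16, Icam1, Cd24a, Zfp423 and Dlk1 in this cluster are not given in the text. Whether the list as a whole was higher in this cluster was not tested. Ebf1, a transcription factor of early adipogenic commitment, was at 832 CPM on average, against 87.3 CPM in follicle-like and 17.7 CPM in pulp-like cells. Its relative Ebf2 was at 40.5 CPM, against at most 1.02 CPM in the other mesenchyme-like classes. Lepr, the leptin receptor of perivascular stroma, was at 217 CPM and Cxcl12, a chemokine of the same stroma, at 286 CPM, below the 395 CPM of endothelium-like cells. Ly6a and Cd34, surface markers of fat progenitors that endothelium also carries, were at 75.8 and 28.2 CPM, below the 227 and 761 CPM of endothelium-like cells. Perivascular markers summed to 1097 to 1979 CPM in the cluster, against 18189 to 25605 CPM in perivascular-like cells. Rgs5 and Col5a3 were among the leading genes of both this cluster and the perivascular-like cells. The levels of Ebf1, Ebf2, Lepr and Cxcl12 in perivascular-like cells are not given here. Whether these genes are particular to the cluster was not tested. All 9 mesenchyme markers were in at least 10% of its cells, and adipocyte markers summed to between 0 and 2.5 CPM. Members and listed genes were left out of the genes used for clustering (30 of 2000 variable genes). Pparg was at 6.41 and 6.13 CPM in WT and 2.0 and 8.35 CPM in Din-KO in this cluster, within the range of odontoblast-like cells.

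**Figure D3:**
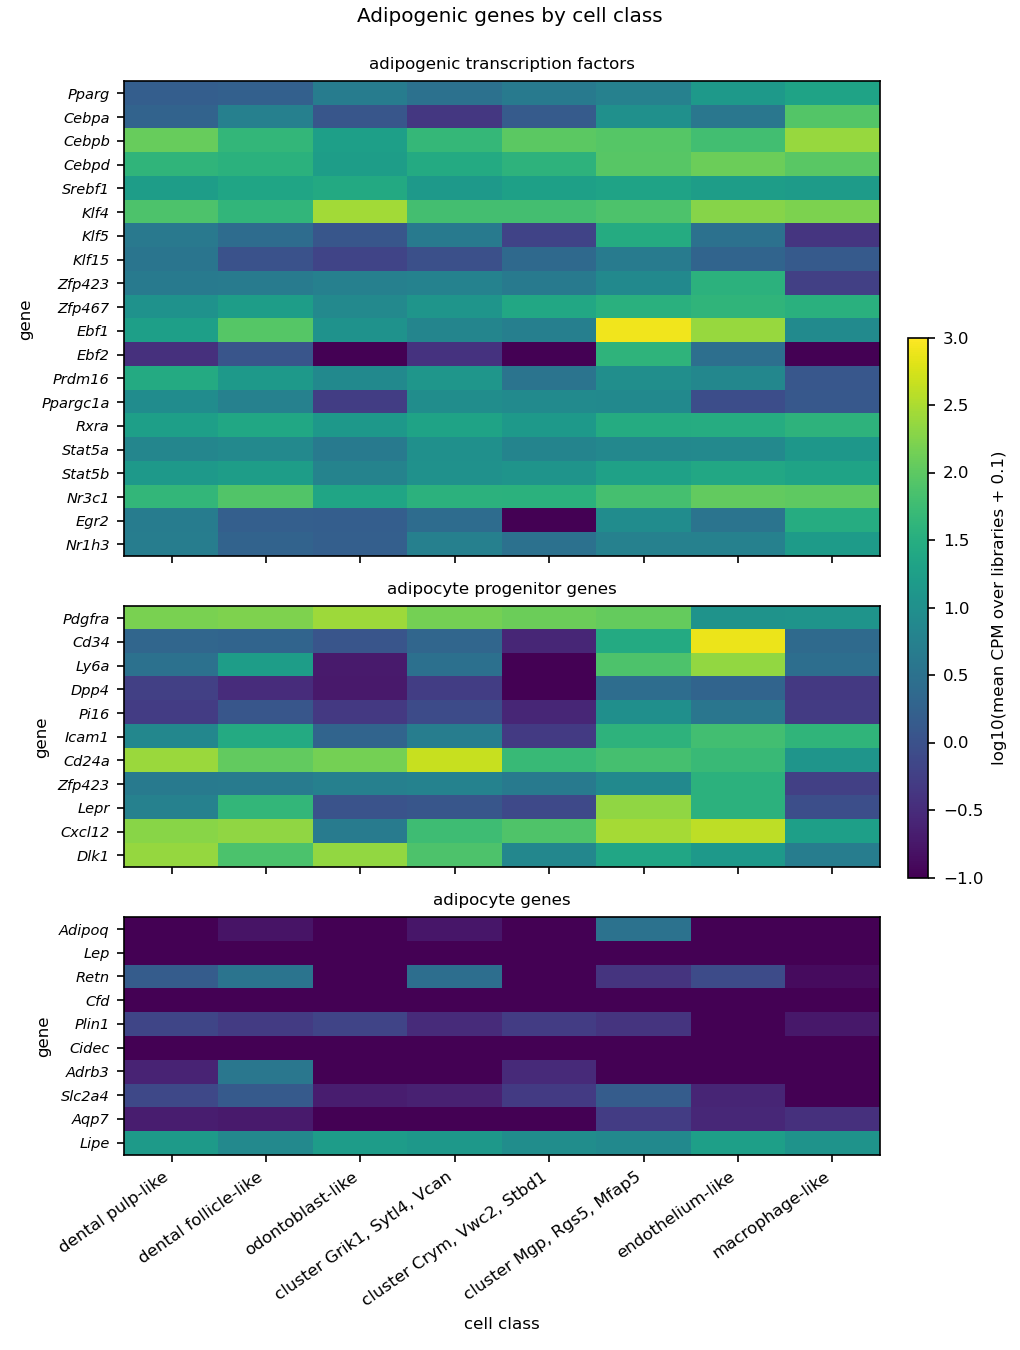
Mean level of 3 lists (20 adipogenic transcription factors, 11 adipocyte progenitor genes, 10 adipocyte genes) in 8 classes, as log10 of the mean CPM over libraries plus 0.1. Among these 8 classes Ebf1, Ebf2 and Lepr are brightest in the cluster led by Mgp, Rgs5 and Mfap5, and Cd34 and Ly6a in endothelium-like cells. The adipocyte genes other than Lipe stay below 5 CPM in all 8 classes. Perivascular-like cells are not shown.

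The members were then compared between classes of the same libraries with edgeR's quasi-likelihood test on class sums with library as a block (Benjamini-Hochberg over all genes, threshold 0.05). In endothelium-like against mesenchyme-like cells, 4 of 8 tested members were higher and 1 was lower, where 28% of 13640 tested genes were called higher and 29.6% lower. Fabp4 was higher by 7.49 ± 0.34 on the log2 scale (SE; adjusted p = 2.95e-06), Cd36 by 4.81 ± 0.51 (adjusted p = 0.000162), Pparg by 2.53 ± 0.27 (adjusted p = 0.000176) and Cebpd by 1.71 ± 0.10 (adjusted p = 8.53e-06). Plin2 fell by 0.56 ± 0.14 (adjusted p = 0.0110), a call that was lost without Din-KO replicate 1 (adjusted p = 0.0540). Lpl differed by -0.42 ± 0.47 (adjusted p = 0.471), and the sign turned to 0.51 ± 0.31 when the cluster led by Mgp, Rgs5 and Mfap5 was left out of the mesenchyme. Without WT replicate 1 it was called lower (-1.04, adjusted p = 0.0470, the lowest over 16 alternatives, which ran up to 0.997). Cebpb differed by -0.50 with all libraries, was called lower without Din-KO replicate 2 (-0.99, adjusted p = 0.0369) and without the highest doublet scores (-1.15, adjusted p = 0.0256), and had an adjusted p of up to 0.970 over its 16 alternatives.

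In macrophage-like against mesenchyme-like cells 7 of 8 tested members were higher and 0 lower (edgeR; 0 lower also at an unadjusted p under 0.05), where 31.1% of 13680 genes were called higher and 36% lower. Cd36 differed most, by 7.45 ± 0.28, followed by Cebpa at 4.99 ± 0.17, Pparg at 3.28 ± 0.30 and Plin2 at 2.74 ± 0.24. Lpl was higher by 2.20 ± 0.44 (adjusted p = 0.00185), although the libraries of the 2 classes overlapped, and without the library block it was not called (1.59, adjusted p = 0.122). Cebpb was higher by 1.75 ± 0.38 (adjusted p = 0.00270) and Cebpd by 1.59 ± 0.14. Fabp4 differed by 0.79 ± 0.50 and was not called (adjusted p = 0.192).

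Between mesenchymal subtypes the members diverged. In dental follicle-like against dental pulp-like cells 5 members were tested. Lpl (4.84 ± 0.43, adjusted p = 0.000145) and Cebpa (1.5 ± 0.31, adjusted p = 0.00876) were higher, and Cebpb (-1.37 ± 0.25, adjusted p = 0.00519) and Plin2 (-0.81 ± 0.09, adjusted p = 0.000460) were lower, where 18.2% of 12672 genes were called higher and 15.8% lower. Cebpd (-0.17 ± 0.08) was not called, but it was called lower under 4 other selections of cells, by 0.52 to 0.75. In odontoblast-like against dental pulp-like cells all 3 tested members were lower, where 16.5% of 11241 genes were called lower and 17.1% higher. Cebpb fell by 2.35 ± 0.26 (adjusted p = 0.00122), Plin2 by 2.19 ± 0.17 (adjusted p = 0.000414) and Cebpd by 1.01 ± 0.14 (adjusted p = 0.00280). On average the pulp cluster led by Cldn10 and Trf, with 1369 of the 4098 pulp-like cells, held more Cebpb and Plin2 than the whole pulp class. Its part in these differences was not tested. Pparg had too few UMIs for either test.

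Most of the wider gene lists held both higher and lower genes in endothelium-like cells. Of all tested genes, 28% were called higher there and 29.6% lower. Of 18 genes of fatty acid uptake and binding, 7 were called higher and 7 lower in endothelium-like against mesenchyme-like cells (median log2 difference -0.21, against -0.05 over all genes). The higher ones included Gpihbp1 (9.31 ± 0.23), and the lower ones Fabp3, a muscle-type carrier (-3.66 ± 0.21). Of 10 tested adipocyte progenitor genes 7 were higher, with Cd34 at 8.30 ± 0.33, and 3 lower, with Pdgfra at -3.99 ± 0.37 (median 1.54). Of 15 tested genes of fatty acid and triglyceride synthesis, 4 were higher, led by Thrsp, a regulator of lipogenesis (9.27 ± 0.32), and 7 lower (median -0.63), and of 20 adipogenic transcription factors 9 were higher and 2, among them Ppargc1a (-3.38 ± 0.39), lower (median 0.57).

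The lists differed in direction in macrophage-like cells, where 31.1% of all genes were called higher and 36% lower. There, 12 of 19 tested adipogenic transcription factors were called higher and 5 lower (median 0.91, against -0.06 over all genes). Of 12 inhibitors of adipogenesis 1 was higher and 7 were lower (median -1.24), Dlk1, a soluble inhibitor of fat cell differentiation, at -4.37 ± 0.24 among them. Synthesis genes were lower in 8 and higher in 2 of 14 (median -1.31), uptake genes higher in 6 and lower in 6 of 18 (median -0.06), and lipid droplet genes higher in 4 and lower in 3 of 11 (median -0.12). Ucp2, a mitochondrial carrier, was higher by 5.56 ± 0.26. Lepr was lower by 3.83 ± 0.42 on this scale. Ppara, a receptor of fatty acid oxidation, was called lower, with 0 UMIs in every macrophage-like sum and 1.18 CPM on average in mesenchyme-like cells. Of the progenitor genes 1 was higher and 6 were lower of 9 (median -3.06).

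In follicle-like against pulp-like cells, Wnt10b, a Wnt ligand that restrains adipogenesis, was higher by 6.54 ± 0.58, from 0.0647 to 5.69 CPM. Its pulp-like level was below that of 3 counts in the pooled class, so the size of this fold is uncertain. Lepr was higher by 3.18 ± 0.28. Sox9 fell by 3.46 ± 0.18, Scd1, a fatty acid desaturase, by 1.95 ± 0.19 and Klf15 by 1.89 ± 0.47. The lists were split, with 5 adipogenic transcription factors higher and 7 lower of 18 (median -0.04, against -0.03 over all genes). Of all tested genes, 18.2% were called higher and 15.8% lower in this comparison. In odontoblast-like against pulp-like cells, Klf4 was higher by 2.53 ± 0.46, Vldlr, a lipoprotein receptor, by 2.18 ± 0.13 and Scd1 by 1.55 ± 0.14, and Cxcl12 fell by 5.05 ± 0.15, Runx1t1 by 4.15 ± 0.28 and Ppargc1a by 4.01 ± 0.67. Adipogenic transcription factors were higher in 2 and lower in 5 of 13 (median -0.44, against -0.04), where 17.1% of all genes were called higher and 16.5% lower.

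**Figure D4:**
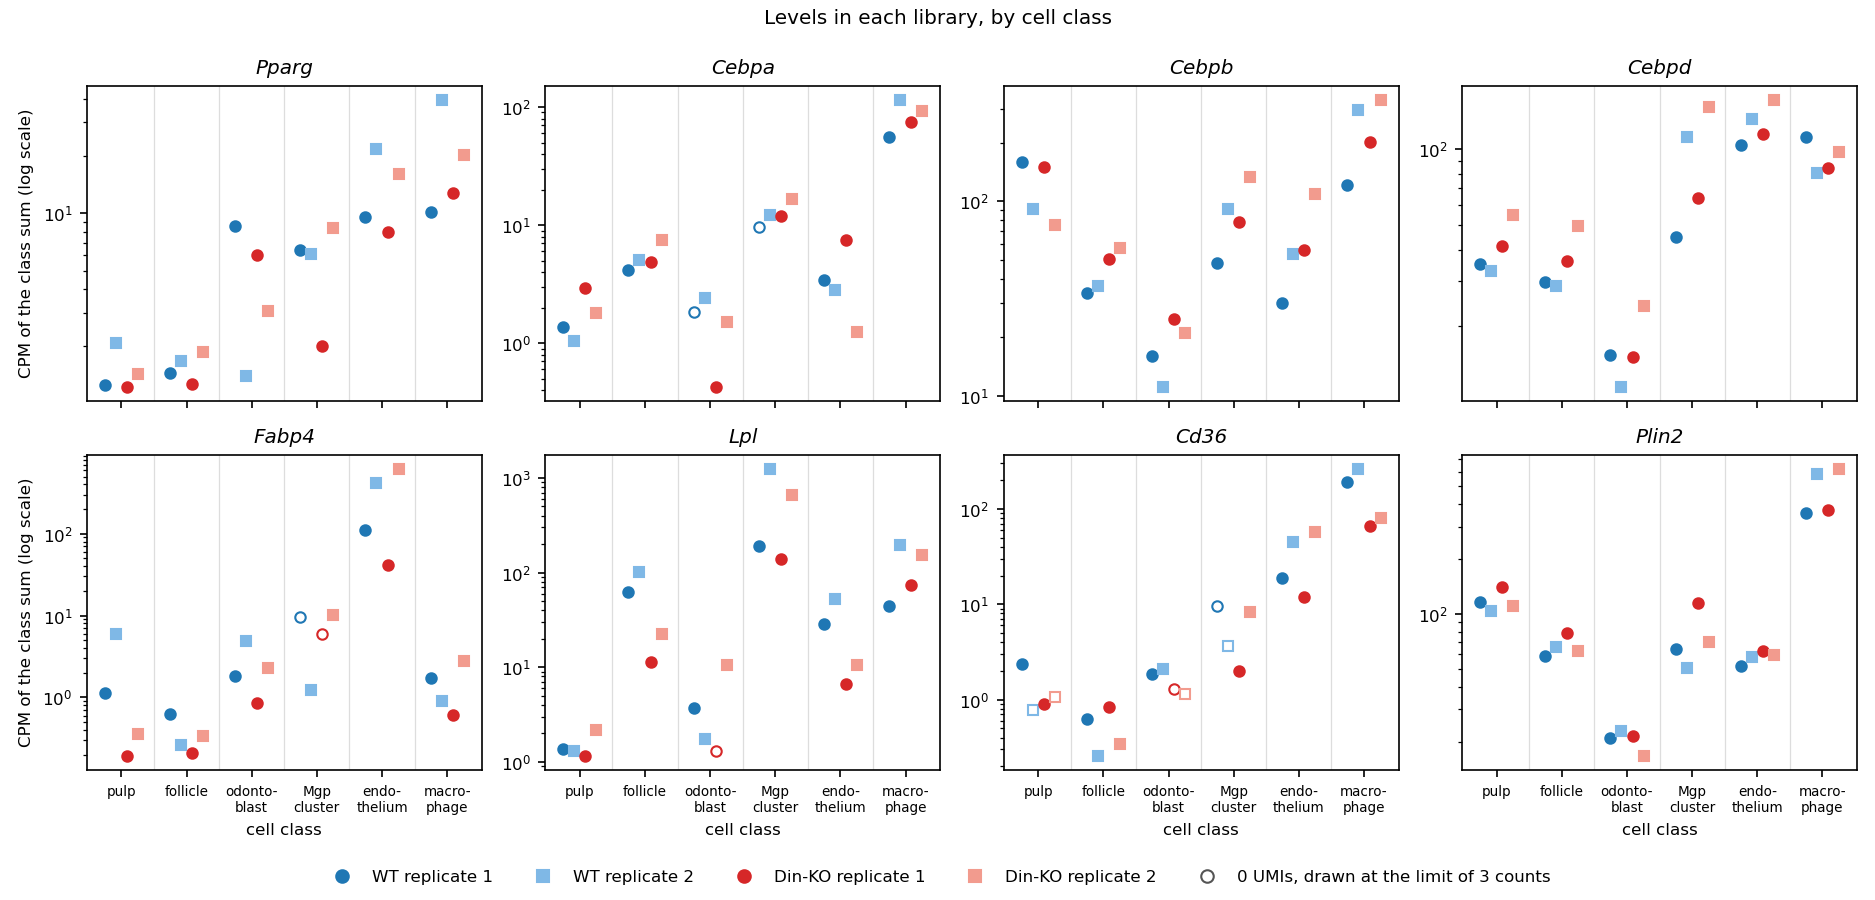
CPM of 8 members in each library and 6 classes on a log scale (blue, WT; red, Din-KO; circles, replicate 1; squares, replicate 2; open symbols, 0 UMIs drawn at the limit of 3 counts). Lpl in follicle-like and endothelium-like cells and Cd36 in macrophage-like cells are lower in both Din-KO libraries than in both WT libraries, and most other groups overlap.

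Whether the members differ between Din-KO and WT was tested within 6 classes, with 2 libraries in each group. No member passed the threshold of edgeR's quasi-likelihood test without a replicate block in 38 tests (0 adjusted p under 0.05). At an unadjusted p under 0.05 there were 4 lower in Din-KO (Lpl in follicle-like and endothelium-like cells, Cd36 in macrophage-like cells and Fabp4 in pulp-like cells) and 2 higher (Cebpb in follicle-like and endothelium-like cells). These 6 are 15.8% of the 38 tests, where 1.81% of all 74309 tests in the 6 classes were at that level. In the directions named, the shares of all genes were 0.563% lower and 2.04% higher in follicle-like, 0.887% lower and 2.14% higher in endothelium-like, 0.43% lower in macrophage-like and 0.321% lower in pulp-like cells. The members were chosen with results of these data known, so these shares are given as a description. DESeq2 called 3 tests of members, those of Lpl in follicle-like and endothelium-like cells and of Cd36 in macrophage-like cells. With a replicate block edgeR called Lpl, Fabp4, Cebpb and Cd36 in some of the 6 classes, as given in the closing section. Over all genes edgeR called 0% in the mesenchyme-like cells as a whole and in each of their 3 named subtypes, 0.0538% in endothelium-like and 0.064% in macrophage-like cells. With 2 libraries a group, a miss does not show equal levels.

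In dental follicle-like cells Lpl was at 62.5 and 101 CPM in WT and 11.4 and 22.3 CPM in Din-KO, and the groups did not overlap. The log2 difference was -2.34 ± 0.39 (SE; adjusted p = 0.511 in edgeR's quasi-likelihood test). It was called in 5 of 15 alternatives, whose adjusted p ran from 2.12e-12 to 1.00. Leaving out WT replicate 1 (-2.63, adjusted p = 0.000763) or Din-KO replicate 2 (-2.88, adjusted p = 0.0123) gave a call, and leaving out WT replicate 2 (-1.96, adjusted p = 0.0667) or Din-KO replicate 1 (-1.93, adjusted p = 0.132) did not. DESeq2 called it (adjusted p = 2.63e-05) among 45 genes in a class where edgeR called 0, and edgeR without the filter on low counts (adjusted p = 2.12e-12) among 182. The difference was smallest with cells chosen one by one (-1.49) and with members kept in the clustering genes (-1.55). In 2 of the 3 follicle-like clusters both Din-KO libraries were below both WT libraries. These were the cluster led by Spp1 and Mmp13, with 175 and 189 CPM in WT and 43.4 and 65.2 CPM in Din-KO, and that led by Sfrp2, with 39.8 and 103 CPM in WT and 9.66 and 23.9 CPM in Din-KO. In the cluster led by Bmp3 only WT replicate 2 was high, at 83.3 CPM, and the other 3 libraries held 2.21 to 5.15 CPM. Perivascular markers summed to 869 and 398 CPM in WT and 1100 and 664 CPM in Din-KO follicle-like cells, and macrophage markers to 145 and 32.1 CPM in WT and 343 and 72.5 CPM in Din-KO. The libraries with the higher sums of both were those with less Lpl within each genotype, and their part in the result was not tested.

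In endothelium-like cells Lpl was at 28.8 and 52.6 CPM in WT and 6.67 and 10.6 CPM in Din-KO, again without overlap (-2.24 ± 0.40, adjusted p = 0.236 in edgeR). It was called in 5 of 14 alternatives, whose adjusted p ran from 4.00e-07 to 0.932. Leaving out WT replicate 1 (-2.61, adjusted p = 4.68e-07) or WT replicate 2 (-1.81, adjusted p = 0.00164) gave a call, and leaving out Din-KO replicate 1 (-1.92, adjusted p = 0.461) or Din-KO replicate 2 (-2.51, adjusted p = 0.0629) did not. DESeq2 (adjusted p = 0.0153) and edgeR without the filter on low counts (adjusted p = 4.00e-07) called it among 57 and 222 genes, where edgeR called 6. Without the highest doublet scores the difference was -1.26 (adjusted p = 0.932). The sums rest on 211 UMIs in 53 cells, and their values by cluster are not given in the text. Perivascular markers, whose cells hold more Lpl, summed to 745 and 1933 CPM in WT and 765 and 652 CPM in Din-KO endothelium-like cells, and their part in the result was not tested.

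In macrophage-like cells the Lpl difference was -0.01 ± 0.64, and in dental pulp-like cells 0.17 ± 0.67. Over all mesenchyme-like cells it was -1.37 ± 1.36 and turned to 0.73 without WT replicate 2. That library held 109 CPM against 14.3 CPM in WT replicate 1. The mesenchyme-like difference was called in 1 of 16 alternatives, the one with a replicate block (edgeR, adjusted p = 0.000331). Of the 2901 mesenchyme-like Lpl UMIs, the cluster led by Mgp, Rgs5 and Mfap5 held 1524 and follicle-like cells 1270. Follicle-like cells were 309 of 2651 and 369 of 845 mesenchyme-like cells in WT and 324 of 3035 and 270 of 633 in Din-KO. The cluster led by Mgp, Rgs5 and Mfap5 had 24 and 57 cells in WT and 41 and 39 in Din-KO. The part of this makeup in the result was not tested. Whether the difference in follicle-like or endothelium-like cells exceeds that in macrophage-like cells was not tested.

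In macrophage-like cells Cd36 was at 192 and 259 CPM in WT and 66.7 and 80.2 CPM in Din-KO, with no overlap (-1.57 ± 0.28, adjusted p = 0.265 in edgeR). It was called in 3 of 14 alternatives, whose adjusted p ran from 0.00141 to 1.00, and in none of the 4 that left out 1 library (-1.73 to -1.38). DESeq2 (adjusted p = 0.00501) and edgeR without the filter on low counts (adjusted p = 0.00168) called it among 45 and 150 genes, where edgeR called 7. The larger macrophage-like cluster, led by C1qa, held 204 and 288 CPM in WT and 67.6 and 85.4 CPM in Din-KO. The smaller, led by Mrc1, had enough cells in 2 libraries, with 145 CPM in WT replicate 1 and 60.9 CPM in Din-KO replicate 1. No single cell held more than 10.3% of the Cd36 UMIs of a macrophage-like sum. Mesenchyme markers summed to 894 and 850 CPM in WT and 668 and 2170 CPM in Din-KO macrophage-like cells, and their part in the result was not tested. Cd36 in endothelium-like cells differed by 0.09 ± 0.72.

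The 3 differences kept their direction among cells in which Xist had 3 or more UMIs and the Y-linked genes had none, a selection added after the sex of the libraries had been seen. In such follicle-like cells Lpl was at 62.9 and 101 CPM in WT and 15.2 and 26.8 CPM in Din-KO (-1.98 ± 0.39, adjusted p = 0.709). In endothelium-like cells it was at 28.9 and 53.1 CPM in WT and 6.09 and 12 CPM in Din-KO (-2.16 ± 0.46, adjusted p = 0.526). Cd36 in macrophage-like cells was at 193 and 267 CPM in WT and 27.9 and 125 CPM in Din-KO (-1.67 ± 0.57, adjusted p = 1.00).

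Of the early C/EBP factors, Cebpb was above both WT libraries in both Din-KO libraries in dental follicle-like cells (33.7 and 36.5 CPM in WT, 50.3 and 57.5 CPM in Din-KO; 0.56 ± 0.20), odontoblast-like cells (0.68 ± 0.32) and endothelium-like cells (30.0 and 53.3 CPM in WT, 55.9 and 109 CPM in Din-KO; 1.01 ± 0.40). None of these was called (adjusted p = 1.00 each). The endothelium-like difference was 1.41 without WT replicate 2, 0.52 without Din-KO replicate 2 and 0.59 without the highest doublet scores. Among Xist cells the odontoblast-like difference was -0.01. In the cluster led by Grik1, Sytl4 and Vcan, which was not tested, Cebpb was at 68.3 and 58.2 CPM in WT and 40.7 and 15.6 CPM in Din-KO. The last value rests on few UMIs, since Din-KO replicate 2 had 32 cells and 319900 UMIs of all genes there. Of the 9924 genes with at least 50 UMIs in this cluster, 15% were likewise lower without overlap. Cebpd was higher without overlap in mesenchyme-like (0.40 ± 0.21), dental pulp-like (0.48 ± 0.24) and dental follicle-like cells (0.50 ± 0.23). Cebpa was higher without overlap in dental pulp-like cells (1.38 and 1.04 CPM in WT, 2.91 and 1.79 CPM in Din-KO, log2 difference 0.97 ± 0.60). It was not called by edgeR and rests on 76 UMIs over the 4 libraries. Free RNA from macrophage-like cells, which held 84.4 CPM on average, was not removed, and its part was not tested.

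The counts of members without overlap are read against all genes. Higher in Din-KO were 1 of 8 tested members in mesenchyme-like, 2 of 7 in pulp-like, 2 of 5 in follicle-like, 1 of 4 in odontoblast-like and 2 of 7 in endothelium-like cells. The corresponding shares of all tested genes were 11.4%, 11.3%, 15.9%, 14.7% and 12.1%. Lower in Din-KO was 1 member in each of pulp-like, follicle-like, endothelium-like and macrophage-like cells, where 10.7%, 8.4%, 14.1% and 15.5% of all genes were. The second gene higher in endothelium-like cells was Plin2 (51.7 and 58.2 CPM in WT, 62.3 and 59.6 CPM in Din-KO; 0.18 ± 0.23).

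The lower member in dental pulp-like cells was Fabp4, with a log2 difference of -3.73 ± 1.16 (adjusted p = 1.00 in edgeR) that rested on 45 UMIs. In the WT libraries 1 cell each held 10 of 18 and 14 of 23 UMIs, and the Din-KO libraries held 3 and 1. With cells chosen one by one from their own markers the difference was 0.47. In endothelium-like cells, its main site, Fabp4 differed by 0.32 ± 1.07, and by -2.57 when Din-KO replicate 2, with the cell of 800 UMIs, was left out. Without WT replicate 2 it was called higher (1.48, adjusted p = 0.00822, the lowest over 14 alternatives, which ran up to 1.00). Pparg differed by between -0.45 and -0.12 in the 5 classes in which it was tested, and its sign turned in each of them when 1 library was left out.

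**Figure D5:**
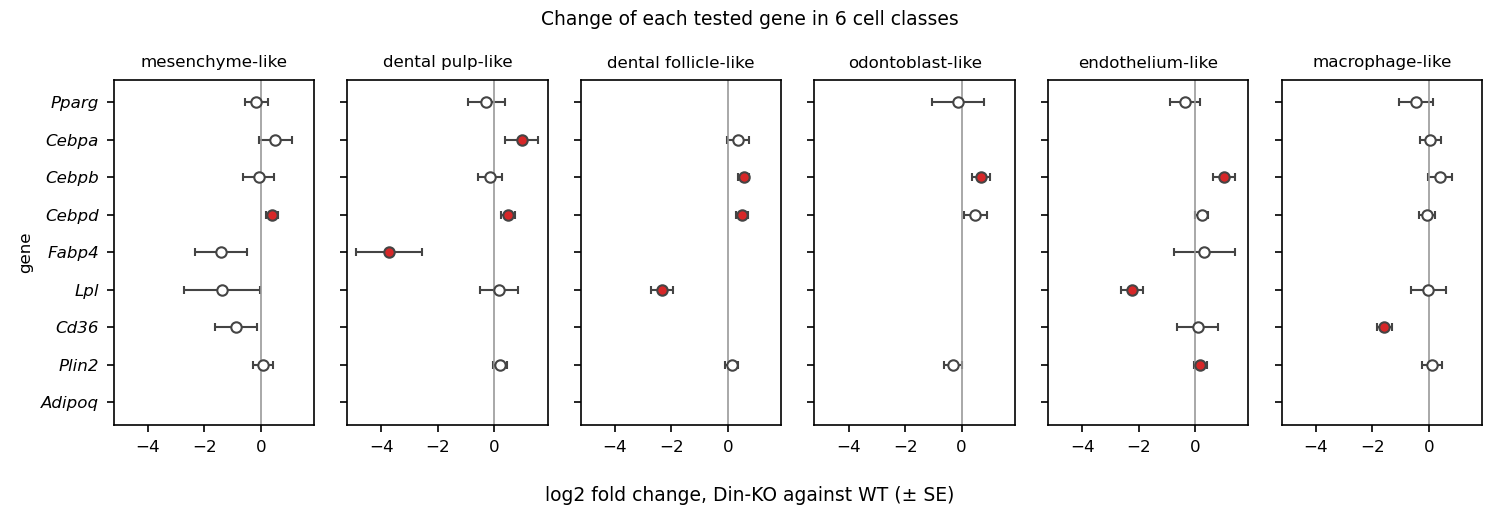
Log2 difference of Din-KO against WT with its standard error for each tested member in 6 classes (edgeR, 2 libraries per group). Red symbols mark members whose WT and Din-KO libraries do not overlap, among them Lpl at -2.34 and -2.24 in follicle-like and endothelium-like cells and Cd36 at -1.57 in macrophage-like cells, and none passed the threshold.

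Among the listed genes, members included, 0 of 518 tests were called between genotypes by edgeR, and 22 (4.25%, against 1.81% of the tests of all genes) had an unadjusted p under 0.05. These were 16 higher (3.09%, against 1.41%) and 6 lower (1.16%, against 0.397%). Among these, Dlk1 was higher in Din-KO in mesenchyme-like cells (60.9 CPM in WT and 208 CPM in Din-KO on average; 1.73 ± 0.41, adjusted p = 1.00), Ly6a in dental pulp-like cells (0.541 and 5.40 CPM; 3.28 ± 0.55) and Klf2, an inhibitor of adipogenesis, in dental follicle-like cells (28.8 and 61.6 CPM; 1.04 ± 0.22). Fabp5, a second fatty acid carrier, was lower in endothelium-like cells (100.1 and 33.3 CPM; -1.55 ± 0.27, adjusted p = 0.229). These 4 were chosen after their values had been seen. In mesenchyme-like cells the list medians ran from -0.18 (18 uptake genes) to 0.81 (5 tested adipocyte genes), against -0.02 over all genes. The largest list median between genotypes was 1.21, for the 9 tested adipocyte progenitor genes in dental pulp-like cells, against -0.005 over all genes. Of these 9, 4 were higher at an unadjusted p under 0.05 in edgeR, where 124 of 13697 genes were, and 0 were called.

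The genes with a pattern most like each member were picked by the Pearson correlation of log2(CPM + 1) over 55 class-by-library sums. Sums of 1 library share their depth. A likeness in classes follows from this selection, so the genes are given as a description. Cebpa was most like Pla2g7 (0.903), Fcgr3 and Ccl3, and Cd36 like Plxna4os1 (0.885), Pnp and Clec4a3. Trf (0.864) and Rnf130 were among the genes most like Plin2. Cebpb was most like Pgd (0.826) and G6pdx, enzymes of the pentose phosphate pathway, and Lst1, and Cebpd like Nhsl2 (0.843), Tnfrsf1a and Mapk3. Fabp4 was most like Gja4 (0.837), a connexin of arteries, Cd300lg and Spaar, and Lpl like Ggt5 (0.772), Dtx4 and P2ry14. Pparg had no close match (Tmem273 at 0.707, Adap2os and Fnip2), and its correlation with Cebpa was 0.57 and with Fabp4 0.59. Cells with UMIs of Pparg, Cebpa and Fabp4 together numbered 0 among 7164 mesenchyme-like, 1 among endothelium-like and 3 among macrophage-like cells. Pparg and Lpl were found together in 34 mesenchyme-like cells, 12 of them in the cluster led by Mgp, Rgs5 and Mfap5.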

How the data were processed

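Droplet libraries of the 4 samples were read as UMI counts per gene and barcode, which the authors deposited as filtered matrices without normalization. They were made with Cell Ranger 6.0.2 (file header) on mm10/GRCm38, and the submitters' processing notes also name bcl2fastq and Seurat. Raw counts are used here without removal of free RNA. Barcodes with fewer than 1000 genes, over 10% of UMIs from mitochondrial genes or over 3% from hemoglobin genes were left out. Libraries were integrated with Seurat 5.3.0 (canonical correlation, 2000 variable genes, 30 components, resolution 1), and clusters were named from fixed marker lists by a score set with the data in hand. Scrublet in scanpy 1.11.5 called 107 cells (0.946%) as doublets, and these were kept. Between 4 and 12 barcodes were shared by any pair of libraries.

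UMIs were summed per class and library (at least 20 cells) and tested with edgeR 4.0.16 (TMM, filterByExpr, quasi-likelihood, Benjamini-Hochberg over all tested genes), without a replicate block between genotypes and with library as a block between classes. The SE of an edgeR log2 difference was derived as its absolute value divided by the square root of the quasi-likelihood F statistic. DESeq2 1.42.0, RLE size factors, no filter on low counts, leaving out each library, other selections of cells and a replicate block were alternatives. The statistics were tested on simulated data. Named genes were the 9 members, up to 3 listed genes per direction with the largest called fold, and the 3 genes most correlated with each member, of which 1 is not reported here. The members, lists and rules were chosen with earlier results of these data known. R 4.3.3, limma 3.58.1, Python 3.11.15, scipy 1.17.1 and matplotlib 3.10.9 were used. The libraries held 32198098 to 54348039 UMIs in all barcodes.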

Additional observations from a re-analysis of the deposited data

Results flagged for a closer look

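Cebpb, an early C/EBP factor, was compared in the 11 classes with at least 20 cells in every library and at least 50 of its UMIs. In 4 of these its WT and Din-KO libraries did not overlap. Both Din-KO libraries were above both WT libraries in dental follicle-like, odontoblast-like and endothelium-like cells and below them in the cluster led by Grik1, Sytl4 and Vcan. None of the first 3 differences was called by edgeR (adjusted p = 1.00 each), the last was not tested, and neither was the difference between classes. In the cluster led by Grik1, Sytl4 and Vcan, Din-KO replicate 2 had only 32 cells. Of the 887 genes compared in 11 classes, 39.5% also had classes without overlap in both directions, and 30.4% had at least 4 classes without overlap. In all, 60 pairs of class and member over 12 classes were looked at in this way.

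Adipoq, the adiponectin gene, had more UMIs outside the kept cells than in them. The filters on cells left out 8 barcodes with 35 Adipoq UMIs, 4 for a high share of hemoglobin and 4 for few genes. A single barcode of WT replicate 1 held 21 of them with 28 Lpl UMIs and 10.4% hemoglobin UMIs. No barcode with Adipoq held a UMI of Plin1, Cidec, Cfd, Lep, Retn or Adrb3, and 10 of 18 held Lpl.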

How the results depend on the processing

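Of 540 repeats of the member comparisons between genotypes, 471 kept their direction and their side of the threshold, 18 were newly called and 51 turned in direction. Between classes, members called at first stayed called in 295 of 297 repeats, and none of those turned. Adipoq had too few UMIs for any test. Pparg had too few for the tests between mesenchymal subtypes and for that between genotypes in follicle-like cells. The part of sequencing depth in these low counts was not tested. The cause of the changes below was not tested.

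Counts of genes called between genotypes moved most. With DESeq2 they were 16 in mesenchyme-like, 7 in pulp-like, 45 in follicle-like, 2 in odontoblast-like, 57 in endothelium-like and 45 in macrophage-like cells. Without the filter on low counts they were 8 in mesenchyme-like, 60 in pulp-like, 182 in follicle-like, 222 in endothelium-like and 150 in macrophage-like cells. Other selections of cells gave 2 in pulp-like cells (resolution 0.5, wider filter on cells, members kept in the clustering genes, no vessel or immune UMIs) and 2 in follicle-like cells (resolution 0.5, highest doublet scores left out). They gave 36 in endothelium-like and 3 in macrophage-like cells without the highest doublet scores, 0 and 3 among Xist cells, and 0 in macrophage-like cells with the wider filter or with cells chosen one by one. In odontoblast-like against pulp-like cells the count was 6476 with the wider filter and 5749 with members kept in the clustering genes, against 3771. Leaving out 1 library gave 2 to 5 genes in mesenchyme-like, 1 to 70 in pulp-like, 18 to 70 in follicle-like, 0 to 1 in odontoblast-like, 26 to 255 in endothelium-like and 0 to 105 in macrophage-like cells, and 2000 to 3490 in odontoblast-like against pulp-like cells. A group left with 1 library was assumed to vary like the other.

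The titles give both genotypes the numbers 1 and 2, and nothing in the labels says that a number marks a shared litter or day. The replicate differences of the genotypes correlated at 0.458 to 0.792 over genes in the 6 classes, so libraries with the same number were alike in part. What they share is not given and there were 2 pairs only, so the main test had no replicate block. With the replicate block the counts were 241 in mesenchyme-like, 277 in pulp-like, 66 in follicle-like, 20 in odontoblast-like, 153 in endothelium-like and 119 in macrophage-like cells. Members called by edgeR with the replicate block were Lpl in mesenchyme-like (-1.42, adjusted p = 0.000331), follicle-like (adjusted p = 0.00212) and endothelium-like cells (adjusted p = 0.00240), Fabp4 in pulp-like (-3.04, adjusted p = 0.0352), Cebpb in endothelium-like (0.98, adjusted p = 0.0161) and Cd36 in macrophage-like cells (adjusted p = 0.00141). The block turned Fabp4 (-0.33) and Cd36 (-0.11) in endothelium-like and Lpl (0.27) in macrophage-like cells.

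The other turns in direction concerned uncalled log2 differences. Cebpb turned to 0.081 in mesenchyme-like and 0.081 in pulp-like cells with the wider filter, to 0.22, 0.17 and -0.012 in mesenchyme-like, pulp-like and odontoblast-like cells among Xist cells, and to 0.0105 in mesenchyme-like cells without vessel or immune UMIs, where Plin2 was 0.68 in odontoblast-like cells. Lpl in macrophage-like cells was 0.080 with the wider filter, 0.63 among Xist cells, 0.046 with cells chosen one by one, 0.0021 without the filter on low counts, 0.028 with members kept and 0.051 without the highest doublet scores. With cells chosen one by one Fabp4 was 1.47 in mesenchyme-like and 0.47 in pulp-like cells, Lpl -1.49 in pulp-like and Cebpd 0.007 in macrophage-like cells. Cd36 in endothelium-like cells was -0.0175 with the wider filter, and Pparg in odontoblast-like cells 0.53 at resolution 0.5. In endothelium-like against mesenchyme-like cells Lpl was 0.51 with the wider filter and 0.51 without the cluster led by Mgp, and Cebpa -0.12 with cells chosen one by one and -0.58 without the highest doublet scores. Fabp4 in macrophage-like against mesenchyme-like cells was -0.080 with cells chosen one by one.

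Leaving out 1 library turned the following differences between genotypes. In mesenchyme-like cells Pparg ran from -0.37 to 0.055, Cebpb from -0.59 to 0.72, Lpl from -3.62 to 0.73, Plin2 from -0.34 to 0.42 and Cd36 from -1.45 to 0.21. In pulp-like cells Pparg ran from -0.36 to 0.018, Cebpb from -0.76 to 0.36 and Lpl from -0.21 to 0.095. Plin2 in follicle-like cells ran from -0.045 to 0.32 and Pparg in odontoblast-like cells from -0.95 to 1.5. In endothelium-like cells Pparg ran from -0.87 to 0.24, Fabp4 from -2.57 to 1.48 and Cd36 from -1.32 to 0.87. In macrophage-like cells Pparg ran from -1.23 to 0.64, Cebpa from -0.36 to 0.60, Cebpb from -0.078 to 1.13, Cebpd from -0.29 to 0.27, Lpl from -0.72 to 1.31 and Plin2 from -0.18 to 0.46. In endothelium-like against mesenchyme-like cells Cebpa ran from -0.28 to 0.87 and Lpl from -1.04 to 0.0024.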
